A study of Homo sapiens with 6 samples.

Results

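The nuclear genes that encode subunits of the respiratory chain and of the ATP synthase were examined for occupancy by PLAG1-S and USF2. A gene was included by its symbol alone: protein-coding nuclear genes whose names begin with NDUFA, NDUFB, NDUFC, NDUFS or NDUFV (assembly factors excluded), with UQCR, with COX4 to COX8, or with ATP5F, ATP5M or ATP5P, together with SDHA to SDHD and CYC1. The rule found 88 of the 20037 protein-coding genes of the RefSeq GRCh38.p14 table. They comprised 38 genes of complex I, 4 of complex II, 10 of complex III, 17 of complex IV and 19 of complex V. NDUFA4 and NDUFA4L2 were not found under those symbols in the table and are not analysed here. 2 members, ATP5MF-PTCD1 and NDUFC2-KCTD14, are readthrough genes that span ATP5MF and NDUFC2 and extend beyond them. Their lengths are 49429 bp against 7973 bp for ATP5MF, and 64148 bp against 11566 bp for NDUFC2.

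The peaks came from ChIP-seq in K562, a human erythroleukemia cell line established from chronic myelogenous leukemia, in which 3xFLAG-tagged PLAG1-S (the short PLAG1 isoform) and USF2 were overexpressed together from 1 lentiviral construct. There were 2 cell lines, clones 4 and 5, each a single clone carrying both transgenes. Each clone gave an anti-FLAG library, an anti-USF2 library and an input, and the anti-USF2 antibody does not separate the transgene product from endogenous USF2. The 4 immunoprecipitated libraries each have a peak list called against the merged inputs, and no list from cells without the transgenes was analysed here. The purpose of the experiment was to see where in the genome the 2 factors might act together.

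The respiratory chain sits in the inner mitochondrial membrane. Complexes I and II take electrons from NADH and succinate and pass them to ubiquinone, complex III passes them to cytochrome c, and complex IV passes them to oxygen, while complex V uses the resulting proton gradient to make ATP. Apart from a few proteins encoded by mitochondrial DNA, the subunits are encoded by nuclear genes on many chromosomes, and their promoters are known for binding sites of NRF1, of the ETS-family factor GABP (also called NRF2) and of YY1. USF2 is a basic helix-loop-helix leucine zipper factor that binds the palindromic E-box CACGTG. PLAG1 is a zinc finger factor that binds a bipartite G-rich site.

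The E-box was found in the promoters of 7 of the 70 members that have a promoter sequence in the RefSeq table, taken as 250 bases before the annotated start to 50 bases from it. Their sites are shown because each lay under a reproducible PLAG1-S peak and because 5 of them lay under a reproducible USF2 peak as well. Each line reads 5′ to 3′ on the strand of the gene (GRCh38.p14, RefSeq), with 20 bases on either side of the E-box, which is in capitals. The sites are at chr17:48892771-48892816 (plus strand, ATP5MC1), chr4:674413-674458 (minus, ATP5ME), chr1:111449221-111449266 (plus, ATP5PB), chr19:8321470-8321515 (minus, NDUFA7), chr19:1605624-1605669 (minus, UQCR11), chr19:1383700-1383745 (plus, NDUFS7) and chr19:5903897-5903942 (minus, NDUFA11).
ATP5MC1: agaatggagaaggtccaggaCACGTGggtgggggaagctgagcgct
ATP5ME: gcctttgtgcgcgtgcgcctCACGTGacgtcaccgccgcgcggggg
ATP5PB: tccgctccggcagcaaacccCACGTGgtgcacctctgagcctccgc
NDUFA7: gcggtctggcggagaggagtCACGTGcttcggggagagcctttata
UQCR11: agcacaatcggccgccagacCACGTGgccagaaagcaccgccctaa
NDUFS7: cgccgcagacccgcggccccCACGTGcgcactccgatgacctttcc
NDUFA11: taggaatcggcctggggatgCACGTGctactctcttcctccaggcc

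PLAG1-S occupied the start of a majority of the respiratory chain genes in both clones, and USF2 joined it at 7 of them. A peak was called reproducible when 1 bp or more of a clone 4 interval was shared with an interval of that factor in clone 5, and co-bound when a reproducible PLAG1-S peak lay within 100 bp, edge to edge, of a reproducible USF2 peak. Within 1 kb of their start, 48 of the 88 members (54.5%) had a reproducible PLAG1-S peak, 7 (7.95%) a reproducible USF2 peak and 7 (7.95%) a co-bound peak. Among all protein-coding genes the same shares were 40.5%, 7.33% and 7.25%. A peak counted when any part of its interval came within that distance. For genes without an annotated start in the promoter table either end of the gene was taken, which applied to 8 of the 48 members (NDUFB9, SDHC, CYC1, ATP5MF and its readthrough gene, ATP5F1B, ATP5F1D and ATP5MC3).

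With the wider window, inside the gene or within 3 kb of it, 52 members (59.1%) had a reproducible PLAG1-S peak against 52.0% of all protein-coding genes. For reproducible USF2 peaks the count was 10 (11.4%) against 10.3%, and for co-bound peaks 10 (11.4%) against 9.98%. In the single lists, PLAG1-S peaks met 66 members in clone 4 (75%, against 64.0% of all genes) and 59 in clone 5 (67.0%, against 58.3%). USF2 peaks met 27 members in clone 4 (30.7%, against 25.3%) and 12 in clone 5 (13.6%, against 13.6%). The reproducible USF2, co-bound and clone 5 USF2 shares of the members thus lay close to those of all genes. The PLAG1-S shares and the clone 4 USF2 share lay above them. Within 1 kb of the start, USF2 peaks met 21.6% of members in clone 4, against 15.7% of all genes. In clone 5 they met 9.09%, against 8.48%. The members are short, with a median length of 9589 bp against 24115 bp for all protein-coding genes, so the wide window covers less sequence per member, whereas the window at the start has the same size for each annotated start. No test was made over the genes, which are not replicates, and clones 4 and 5 are the only 2 replicates of each factor.

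The members differed by complex. The 4 succinate dehydrogenase genes of complex II each had a reproducible PLAG1-S peak, as did 14 of 19 complex V genes (73.7%), 6 of 10 complex III genes (60%), 21 of 38 complex I genes (55.3%) and 7 of 17 complex IV genes (41.2%). Reproducible USF2 peaks, all of them part of a co-bound peak, were found at 4 genes of complex I, 1 of complex II, 2 of complex III and 3 of complex V, and at 0 of the 17 genes of complex IV, where 3 genes had a USF2 peak in clone 4 and 1 in clone 5. The difference between the complexes was not tested.

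**Figure D1:**
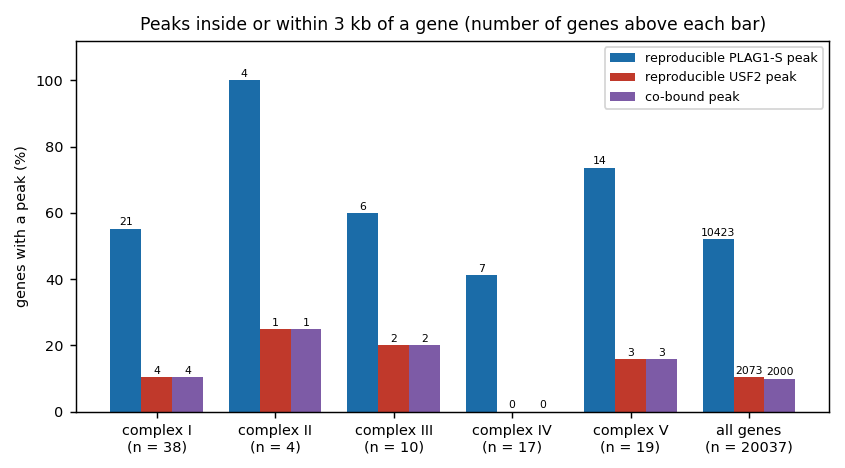
Share of genes (%, y axis) with a reproducible PLAG1-S, reproducible USF2 or co-bound peak inside or within 3 kb, for complexes I to V and for all protein-coding genes, with the number of genes above each bar. PLAG1-S bars run from 41.2% in complex IV to 100% of the 4 genes of complex II, and complex IV has 0 genes with a reproducible USF2 peak.

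At the members' own starts the PLAG1-S fold enrichment had a median of 7.77 in clone 4 (range 2.73 to 20.9, n = 48) and 6.51 in clone 5 (range 3.41 to 15.6). The fold is that given by MACS2, the ratio of fragments over the summit to the local background after a constant is added to both. It is therefore smaller than the plain ratio. The clone 4 median over the start peaks of all genes was 7.12 (n = 8112). A fold of at least 10 in clone 4 was reached by 19 of the 48 (39.6%), against 31.7% of the start peaks of all genes. The fold was larger in clone 4 at 39 of the 48 starts, with a median ratio of clone 4 to clone 5 of 1.28. Each peak was chosen by its clone 4 fold, which favours clone 4 in this count, and the count was not made over the starts of all genes. For the strongest peak of the wider window, chosen in the same way, clone 4 was larger at 86.3% of the members' distinct peaks. Over all genes it was larger at 74.1%. The summits had a median of 42.5 fragments in clone 4 and 28 in clone 5. The peak shared by ATP5MF and its readthrough gene is counted for each of them.

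The start folds were highest in complex V, which makes the ATP, with a clone 4 median of 11.02 (n = 13), and lowest in complex IV, cytochrome c oxidase, with a median of 5.47 (n = 7). The medians were 7.77 in complex I (n = 18), 7.72 in complex II (n = 4) and 9.22 in complex III (n = 6). The 13 entries of complex V include 1 peak counted both for ATP5MF and for its readthrough gene, and its fold is the clone 4 median. With that peak counted once, the median would lie midway between 8.23 (ATP5PD) and 11.02 in clone 4. In clone 5 it would lie midway between 6.35 (ATP5PF) and 9.68 (ATP5F1E). The ranges of all 5 complexes overlapped. In clone 5 the medians were 6.01, 6.31, 6.77, 4.44 and 9.68 for complexes I to V, so complex V was highest and complex IV lowest in both clones.

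**Figure D2:**
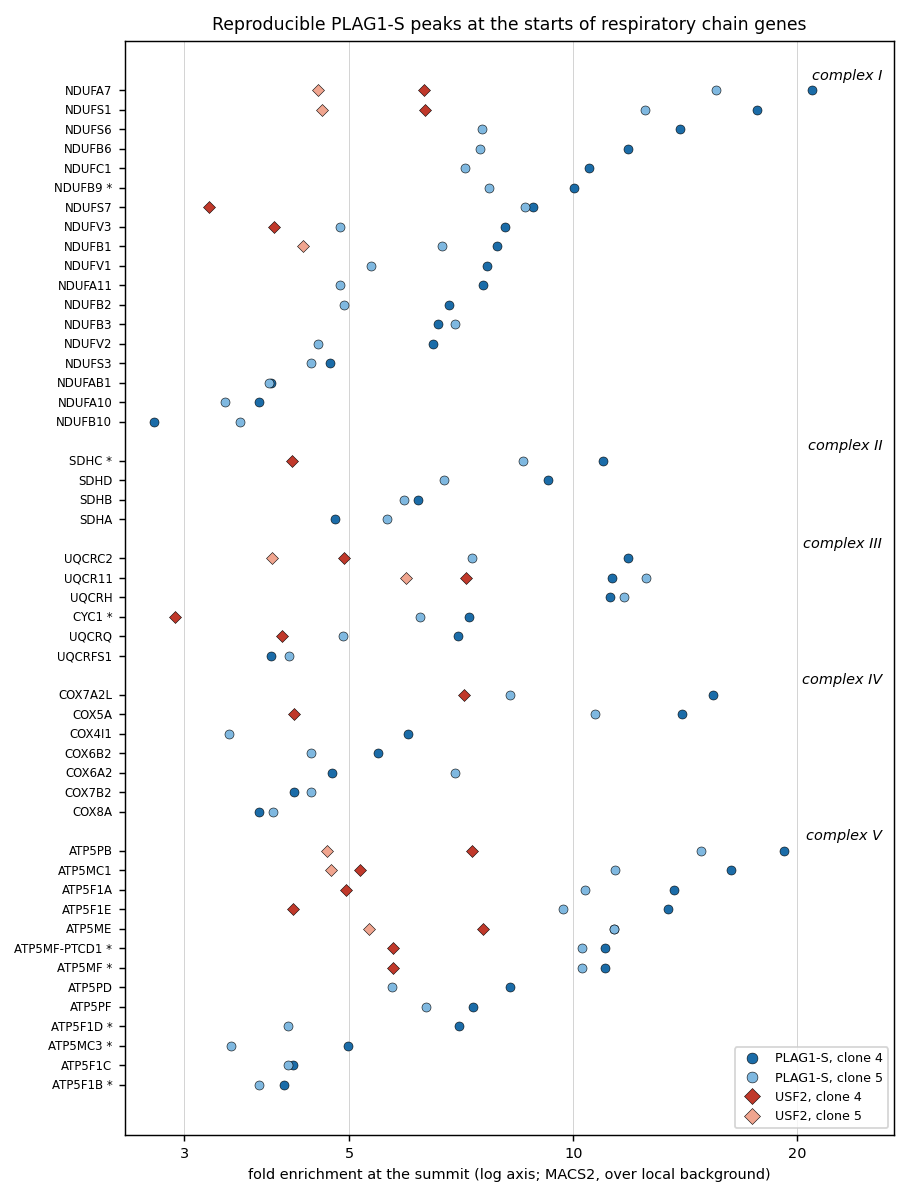
Fold enrichment (x axis, log scale) of the strongest reproducible PLAG1-S peak within 1 kb of the start of each of 48 respiratory chain genes (y axis, by complex), in clone 4 and clone 5 (circles), and of a USF2 peak within 100 bp of it where there was one (diamonds). An asterisk marks a gene without an annotated start in the promoter table, for which either end was taken; NDUFA7 and ATP5PB lead, and 7 genes carry diamonds of both clones.

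The 7 genes with a co-bound start belonged to complexes I, III and V. NDUFA7, an accessory subunit of complex I, had PLAG1-S folds of 20.9 in clone 4 and 15.6 in clone 5 and USF2 folds of 6.30 and 4.55. NDUFS1, the largest core subunit of complex I and a carrier of iron-sulfur clusters, had PLAG1-S folds of 17.7 and 12.5 and USF2 folds of 6.31 and 4.60. These are the 2 strongest PLAG1-S start peaks of complex I in both clones. Both genes have a neighbour that starts on the opposite strand within 1 kb upstream. It is RPS28 (a ribosomal protein of the small subunit) for NDUFA7 and EEF1B2 (a subunit of elongation factor 1) for NDUFS1.

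In complex III, UQCRC2, one of the core proteins, had PLAG1-S folds of 11.8 and 7.32 in clones 4 and 5 and USF2 folds of 4.92 and 3.94. UQCR11, a small accessory subunit, had PLAG1-S folds of 11.3 and 12.5 and USF2 folds of 7.17 and 5.96, and was the one co-bound start with a larger PLAG1-S fold in clone 5. The stronger USF2 summit at UQCR11 was 183 bp upstream of the start in clone 4, on the E-box, and the PLAG1-S summit was 529 bp downstream, 712 bp away inside the same wide PLAG1-S interval. A second, weaker USF2 peak in clone 4 (fold 3.28, 23 fragments) had its summit 569 bp downstream, near that of PLAG1-S, and no clone 5 USF2 peak was called there.

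In complex V, ATP5PB, which forms the peripheral stalk, had PLAG1-S folds of 19.2 and 14.9 and USF2 folds of 7.30 and 4.67. ATP5MC1, 1 of 3 genes for the membrane rotor subunit c, had PLAG1-S folds of 16.3 and 11.4 and USF2 folds of 5.18 and 4.73. ATP5ME, the small membrane subunit e, had nearly equal PLAG1-S folds of 11.4 and 11.3 and USF2 folds of 7.56 and 5.32. The USF2 fold was larger in clone 4 at all 7 of these starts. The USF2 summits were covered by 22 to 44 fragments in clone 4 and 16 to 32 in clone 5, so that a few fragments set these folds, and PLAG1-S summits in clone 4 were covered by 53 to 121.

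The co-bound starts stood among the stronger PLAG1-S peaks. Their clone 4 PLAG1-S folds ranged from 11.3 to 20.9 (median 16.3, n = 7), and the 41 start peaks without reproducible USF2 had a median of 7.24. The same contrast over all genes was 21.7 against 6.35. The 12 start peaks with a USF2 peak within 100 bp in 1 clone (11 of them in clone 4) had a median of 10.99, and the 29 with none had a median of 6.18 and reached 13.9. USF2 was thus found at the starts with the larger PLAG1-S folds, with overlap between the classes, as over the whole gene set. The part that peak strength plays in which peaks were called in both clones was not tested.

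**Figure D3:**
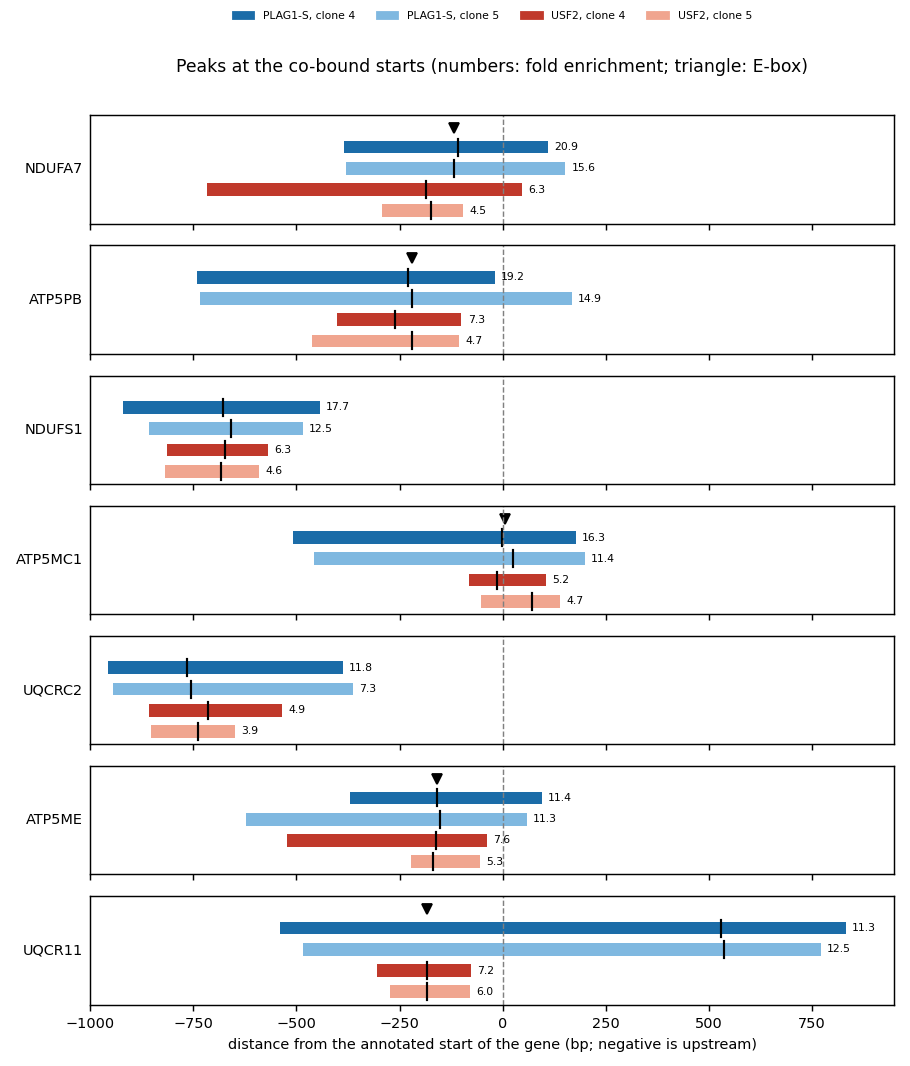
Interval (bars) and summit (black ticks) of the strongest PLAG1-S peak and the strongest nearby USF2 peak in each clone around the start of the 7 genes with a co-bound start, as distance in bp from the annotated start (x axis, negative is upstream), with the fold enrichment beside each bar and the E-box as a triangle. At UQCR11 the summits of the USF2 peaks drawn sit on the E-box and the PLAG1-S summits 712 bp or more away (a weaker clone 4 USF2 peak of fold 3.28 is not drawn). NDUFS1 and UQCRC2 have no E-box in the promoter window, but their summits lie upstream of that window, where motifs were not searched. The clone 4 PLAG1-S summits are 678 bp (NDUFS1) and 765 bp (UQCRC2) upstream of the start.

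At 6 of the 7 E-box sites there was a USF2 peak in clone 4, and its summit lay within 50 bp of the middle of the E-box at 5 of them and within 100 bp at 6. The clone 4 USF2 summit was 1 bp from the E-box at ATP5ME and at UQCR11, 14 bp at NDUFS7, 20 bp at ATP5MC1, 39 bp at ATP5PB and 68 bp at NDUFA7. The clone 4 PLAG1-S summit lay within 50 bp of the E-box at 5 of the 7 sites, at 0 bp for ATP5ME and 8 bp for ATP5MC1, and was 713 bp away at UQCR11. At NDUFS7, a core subunit with an iron-sulfur cluster, the USF2 peak was called in clone 4 alone (fold 3.24, 19 fragments), and at NDUFA11, an accessory subunit, no USF2 peak met the E-box in either clone.

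Over the 70 promoters the E-box was no more frequent than elsewhere, 10.0% of members against 10.9% of 15843 protein-coding genes with a promoter sequence. Its distribution followed the peaks: it was present in 7 of the 26 member promoters that met a reproducible PLAG1-S peak (26.9%, against 23.7% over all genes) and in 0 of the 44 that did not (against 4.45%). All 5 member promoters that met a reproducible USF2 peak held it, against 71.6% over all genes. The longer USF site CACGTGAC, which contains the E-box, was in 2 members, ATP5ME and NDUFA7 (2.86% against 4.06%).

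The other motifs, searched on both strands at any annotated start, had shares that lay further from those of all genes. The central part of the NRF1 site, CGCATGCG, was in 11 members (15.7%, against 3.28% of all genes), the ETS site CCGGAAGT in 12 (17.1%, against 6.97%) and the YY1 site AAGATGGCG in 9 (12.9%, against 3.21%). The PLAG1 site, taken as GGGGC, 6 to 8 of any base and GGG, was in 10 (14.3%, against 35.2%). Its share was 19.2% of the 26 member promoters that met a reproducible PLAG1-S peak and 11.4% of the 44 that did not, with 50.1% and 27.7% over all genes. Genes with several annotated starts had several windows searched. Counted by window, the PLAG1 site was in 29.2% of the 22183 windows of all genes, and this share was not computed for the members. The member promoters had a median GC content of 61.0% and 22.5 CpG dinucleotides, against 62.3% and 21.5. The part of base composition or of the number of windows in these shares was not tested. These matches are descriptions of the letters in a 300-base window and not mapped sites.

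The promoters of 3 members are shown as examples, since they hold an E-box beside motifs of the known regulators of these genes or such motifs alone. They run from 250 bases before the start to 30 bases from it (GRCh38.p14, strand of the gene), with matches to the E-box, NRF1 core, ETS and YY1 motifs in capitals. The longer USF site of ATP5ME is its E-box with the 2 bases that follow, which are in lower case. ATP5ME (chr4:674247-674526, minus strand) holds an E-box and an NRF1 core, NDUFS7 (chr19:1383657-1383936, plus) an E-box, an NRF1 core and a YY1 site, and COX5B (chr2:97645812-97646091, plus), which encodes a nuclear subunit of cytochrome c oxidase and had no peak in any list, 2 ETS sites.
ATP5ME: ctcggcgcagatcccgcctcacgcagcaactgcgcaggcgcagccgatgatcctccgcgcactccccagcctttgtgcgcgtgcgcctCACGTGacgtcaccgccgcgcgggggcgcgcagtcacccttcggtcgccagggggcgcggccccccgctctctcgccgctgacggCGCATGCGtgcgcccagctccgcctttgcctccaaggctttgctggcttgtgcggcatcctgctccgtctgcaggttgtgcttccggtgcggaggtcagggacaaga
NDUFS7: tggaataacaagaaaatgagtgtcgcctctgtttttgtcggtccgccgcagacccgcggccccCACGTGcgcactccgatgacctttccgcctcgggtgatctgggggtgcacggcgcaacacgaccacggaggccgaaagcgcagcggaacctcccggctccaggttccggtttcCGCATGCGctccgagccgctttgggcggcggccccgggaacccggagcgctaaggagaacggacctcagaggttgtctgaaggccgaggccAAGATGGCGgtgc
COX5B: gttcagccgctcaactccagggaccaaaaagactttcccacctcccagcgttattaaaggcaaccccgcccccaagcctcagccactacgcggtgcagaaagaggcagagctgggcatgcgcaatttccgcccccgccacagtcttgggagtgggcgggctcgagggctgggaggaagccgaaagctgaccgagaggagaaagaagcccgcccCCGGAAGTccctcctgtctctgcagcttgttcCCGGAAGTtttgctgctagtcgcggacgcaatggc

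The wide window also brought in peaks that lay at other genes, and 3 of the 10 co-bound members owed their co-bound peak to it. NDUFV2, a core subunit of complex I, had the strongest peak of all members, with PLAG1-S folds of 36.0 and 35.2 and USF2 folds of 25.7 and 18.7 in clones 4 and 5. Its clone 4 PLAG1-S summit (chr18:9136750) lay 34051 bp from the start of NDUFV2 and 2409 bp beyond its end, within 1 kb of an end of ANKRD12 and of NDUFV2-AS1. At its own start NDUFV2 had PLAG1-S folds of 6.48 and 4.53 and no USF2 peak in either clone.

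SDHA, the flavoprotein that oxidizes succinate, had a co-bound peak 53247 bp from its start, with PLAG1-S folds of 16.8 and 12.5 and USF2 folds of 4.75 and 3.68. That peak lay within 1 kb of an end of PDCD6, a calcium-binding protein gene. At its own start SDHA had PLAG1-S folds of 4.78 and 5.61 and no USF2 peak. NDUFS6, an accessory subunit of complex I, had its co-bound peak 1510 bp upstream of the start, inside MRPL36, a gene of the mitochondrial ribosome, with PLAG1-S folds of 20.8 and 13.8 and USF2 folds of 10.4 and 9.05. A second peak, 731 bp upstream of NDUFS6, had PLAG1-S folds of 13.9 and 7.53 and no USF2.

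**Figure D4:**
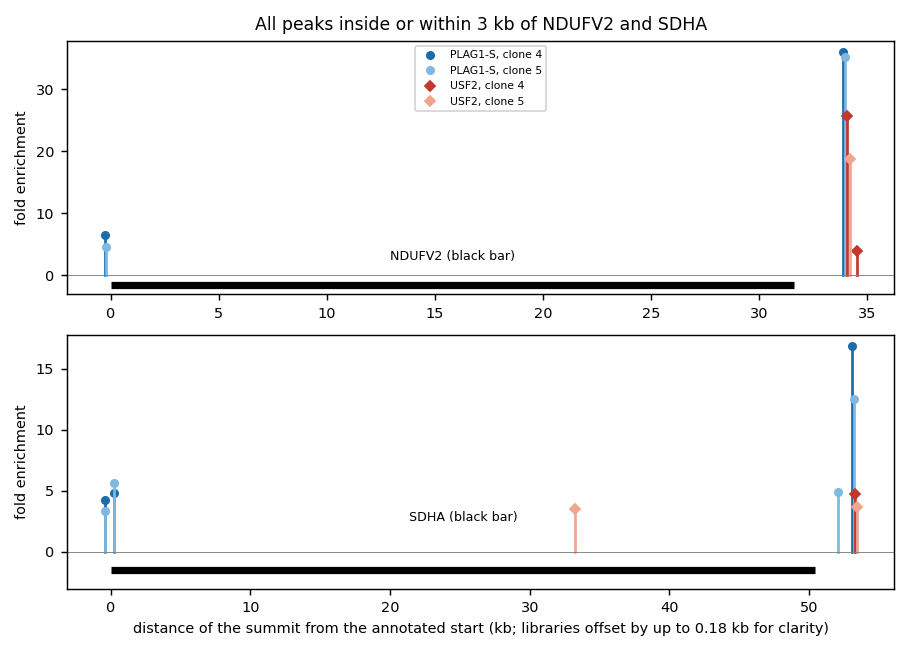
Fold enrichment (y axis) of every peak in the 4 libraries inside or within 3 kb of NDUFV2 (top) and SDHA (bottom), at the distance of its summit from the annotated start in kb (x axis), with the gene as a black bar. The largest peaks lie past the far end of each gene, at 34051 bp and 53247 bp from the start in clone 4, and the peaks at the starts are below 7.

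In all, the strongest reproducible PLAG1-S peak of the window was not the one at the start for 13 of the 52 members, and 5 of these 13 summits lay within 1 kb of an end of another gene. NDUFB6 (18.3 in clone 4 and 13.8 in clone 5) had it at TOPORS, NDUFB10 (10.3 and 8.97) at RPS2 and COX6B2 (7.78 and 5.18) at KMT5C. For ATP5PO, the stalk subunit known as OSCP, the peak (16.8 and 13.6) lay 1067 bp past the end of the gene, and for NDUFA10 (13.2 and 5.00) it lay 90703 bp into the gene. With the strongest peak of the whole window the median fold was 9.47 in clone 4 and 7.05 in clone 5 (n = 52), against 8.17 in clone 4 for all genes (n = 10423). Over the 51 distinct peaks the log2 folds of the clones had a Pearson correlation of 0.897, a description over peaks that share the 2 libraries and the inputs.

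The start peaks of the members sat farther from the annotated start than those of other genes. Over the 40 with an annotated start the median distance was 323 bp, against 185 bp over 6630 genes, and 16 (40.0%) lay within 250 bp, against 60.1%. The summit was upstream in 25 of the 40 (62.5%, against 54.4%). Respiratory chain genes often start back to back with another gene: 23 of the 70 (32.9%) had another protein-coding gene starting on the opposite strand within 1 kb upstream, against 12.3% of 15843 genes. PLAG1-S was at the start of 15 of these 23 (65.2%, against 59.0% of all such genes) and of 25 of the other 47 (53.2%, against 39.4%). Of the 7 co-bound starts, 4 were of this kind (ATP5PB with WDR77, NDUFS1 with EEF1B2, ATP5ME with MYL5 and NDUFA7 with RPS28), and a peak there cannot be given to one of the 2 genes. Co-bound starts were thus found at 17.4% of the 23, against 12.9% of all such genes, and at 6.38% of the other 47, against 6.79%.

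A list of 20 subunits was chosen as catalytic or core. It held COX4I1, COX5A, COX5B and COX6B1 of complex IV but not UQCRC1 and UQCRC2, so it does not separate core from accessory subunits. Of the 20, 16 (80.0%) had a reproducible PLAG1-S peak at the start. The counts were 29 of the 62 other members (46.8%) and 3 of 6 tissue-restricted isoforms, and the share of all protein-coding genes was 40.5%. These differences were not tested. The folds were not larger for the listed subunits, with a clone 4 median of 6.86 (n = 16) against 10.0 for the other members (n = 29). In complex I, NDUFV1, which binds NADH, had folds of 7.65 in clone 4 and 5.34 in clone 5, NDUFS7 had 8.84 and 8.61, and NDUFS3 had 4.71 and 4.44. NDUFS8, which carries iron-sulfur clusters, had a reproducible peak 5741 bp from its start (4.09 and 3.55) and a start peak in clone 4 alone.

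In complex II the membrane anchors SDHC (10.96 and 8.56) and SDHD (9.26 and 6.71) had larger start folds than the catalytic subunits SDHB (6.18 and 5.91) and SDHA, in both clones. In complex III, cytochrome c1 (CYC1) had folds of 7.24 and 6.22 and the Rieske protein (UQCRFS1) 3.93 and 4.16. In complex IV, COX5A had folds of 13.98 and 10.7 and COX4I1 6.0 and 3.45, whereas COX5B and COX6B1 had no peak in any list.

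Complex IV's largest start fold in clone 4 was that of COX7A2L, a protein of respiratory supercomplexes, with 15.4 in clone 4 and 8.22 in clone 5. Of the catalytic head of ATP synthase, the alpha subunit gene ATP5F1A had start folds of 13.7 and 10.4, the beta subunit gene ATP5F1B 4.08 and 3.78, and the gamma subunit gene ATP5F1C 4.21 and 4.14. ATP5F1B, whose value was taken at either end of the gene, had a larger peak inside it or within 3 kb, with folds of 9.26 and 6.28. The alpha subunit gene had the largest start fold of the 3 in both clones.

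The 6 isoforms known to be restricted to tissues such as muscle, testis or lung had clone 4 start folds below the median of 7.77 or no reproducible peak. COX6A2 (muscle) had start folds of 4.74 and 6.94, COX7B2 had 4.22 and 4.44 and COX6B2 (testis) had 5.47 and 4.44. In clone 5 the fold of COX6A2 was above the clone 5 median of 6.51. The clone 4 summit at this short gene lay 758 bp from the start, 129 bp past the far end. COX8C had a PLAG1-S peak in clone 5 alone (3.95), and COX7A1 (muscle) and COX4I2 (lung) had no peak in any list. COX6B2 had USF2 peaks in both clones that did not overlap, with folds of 2.86 and 3.48.

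USF2 was called in clone 4 alone at 16 members, with largest folds from 3.24 to 7.13 (median 4.18): COX7A2L (7.13), ATP5MF and its readthrough gene (5.72, the same peak), NDUFA10 (5.26), ATP5F1A (4.95), COX5A, ATP5F1E, NDUFA11, SDHC, UQCRQ, NDUFV3, CYC1, NDUFB11, NDUFS5, NDUFB10 and NDUFS7. It was called in clone 5 alone at NDUFB1 (4.33). At NDUFS5, USF2 in clone 4 was the only peak (3.55, 15 fragments). The clone 5 USF2 list holds 4369 peaks in all against 9338 in clone 4, so an absence from clone 5 was more frequent over the whole genome too.

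PLAG1-S was called in clone 4 alone at 12 members (among them UQCRHL, NDUFB5, NDUFA2, COX7A2, COX6C, NDUFB8, COX6A1, NDUFA3, NDUFA6, ATP5MGL and NDUFB11), with largest folds from 3.31 to 6.85. It was called in clone 5 alone at 5 (COX7C, ATP5MK, ATP5MG, COX8C and NDUFB7), with folds from 3.44 to 4.17. At NDUFC2 and NDUFA13 the peaks of the clones did not overlap. The readthrough gene NDUFC2-KCTD14 did have reproducible PLAG1-S peaks, which lay outside NDUFC2. The strongest (9.67 and 8.90 in clones 4 and 5) was 28382 bp from its start in clone 4. UQCRHL is an intronless near copy of UQCRH, and reads that fit both copies cannot be placed with certainty.

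The remaining 16 members had no peak in any of the 4 lists: NDUFB4, NDUFS4, NDUFA5, NDUFA9, NDUFA12 and NDUFA1 of complex I; UQCRC1, UQCRB and UQCR10 of complex III; COX5B, COX6B1, COX7A1, COX4I2 and COX7B of complex IV; and ATP5MC2 and ATP5MJ of complex V. UQCRC1 is the partner of UQCRC2 in the core of complex III, and ATP5MC2 encodes the same mature subunit c as ATP5MC1. In both cases 1 gene had a co-bound start and the other no peak. The remaining subunit c gene, ATP5MC3, had a reproducible PLAG1-S peak (4.97 and 3.47 in clones 4 and 5, taken at either end) and no USF2 peak. Genes without a peak were common over the whole gene set. PLAG1-S peaks met 64.0% of all protein-coding genes in clone 4 and 58.3% in clone 5. The share of all genes with no peak in any list, or with a peak in 1 clone alone, was not computed. Whether the members differ from other genes in these counts was therefore not tested. The weakest peaks that were called in the members' windows had 15, 12, 13 and 14 fragments at the summit in the PLAG1-S clone 4, PLAG1-S clone 5, USF2 clone 4 and USF2 clone 5 lists.

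Genes that build or regulate the chain were counted in 2 lists, which were chosen with earlier results of the data known. Of 61 assembly factors, 43 (70.5%) had a reproducible PLAG1-S peak inside or within 3 kb and 13 (21.3%) a co-bound peak. Of 22 regulators and electron carriers, 18 (81.8%) had a PLAG1-S peak and 6 (27.3%) a co-bound peak. The corresponding shares were 59.1% and 11.4% for the subunit genes and 52.0% and 9.98% for all genes. Within 1 kb of the start the PLAG1-S and co-bound shares were 62.3% and 18.0% for the assembly factors, 63.6% and 13.6% for the regulators and carriers, 54.5% and 7.95% for the subunit genes and 40.5% and 7.25% for all genes. The lists differ in gene length, with medians of 14937 bp and 23468 bp for the assembly factors and regulators, and the differences were not tested.

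Of these 19 co-bound genes, the 10 with the largest clone 4 USF2 fold were led by ATP5IF1, the inhibitor of ATP hydrolysis by complex V, with USF2 folds of 15.8 and 12.1 in clones 4 and 5. UQCC6, an assembly factor of complex III, had 12.7 and 10.7, NDUFAF5, of complex I, had 12.1 and 8.66, and ATPAF2, of complex V, had 10.6 and 6.26. The coactivators of mitochondrial biogenesis PPARGC1A (8.53 and 4.06) and PPARGC1B (7.43 and 4.85) were among them, with peaks counted over the whole gene. LRPPRC (7.84), ACAD9 (7.65), CMC2 (7.53) and COA7 (7.37) completed the 10. Within 1 kb of the start, 11 of the 13 assembly factors and 3 of the 6 regulators and carriers were co-bound. The folds given are the largest inside the gene or within 3 kb. Which of these 10 peaks lay at the gene's own start was not examined. In the same window, the largest clone 4 USF2 folds among the co-bound subunit genes were 25.7 (NDUFV2, at its neighbour) and 10.4 (NDUFS6).

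The mitochondrial ribosomal proteins, like the subunits nuclear-encoded parts of large complexes, had PLAG1-S at 49 of 77 genes (63.6%) and co-bound peaks at 5 (6.49%). The V-ATPase genes, whose products pump protons into lysosomes by a machine related to complex V, had PLAG1-S at 21 of 24 (87.5%) and co-bound peaks at 9 (37.5%), the latter led by ATP6V0C with USF2 folds of 52.2 and 49.4. The co-bound share of the mitochondrial ATP synthase was 3 of 19 genes. These shares are counts side by side, without a test.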

How the data were processed

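ChIP-seq (50-base single-end reads) was analysed in K562 clones 4 and 5, at 42.5 M reads per immunoprecipitated library and 55 M per input per the labels. The submitters' processing notes name FastQC, cutadapt, HISAT2 2.0.4, SAMtools, MACS2, bedtools and HOMER, and the build hg38. The authors called peaks in each library against the merged inputs, which have no list of their own, and deposited 4 narrowPeak lists. The fold deposited by the authors is the ratio of fragments to local background at the summit, with a constant added to both. The −log10 p and −log10 q deposited with it come from MACS2, and the deposited score is 10 times the −log10 q, rounded down. The score was used for no result, and fold, p and q only to describe, rank or filter peaks.

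The fragment number at a summit and its background were worked out from fold and −log10 p (tolerance 0.001) for every peak in the members' windows, and the recovery was tested on simulated data. PLAG1-S lists end near q = 0.00990 and 0.00974, USF2 lists near 0.0494 and 0.0477. Genes came from RefSeq (GRCh38.p14), and 70 of 88 members matched a promoter sequence (15843 of 20037 genes). Clone numbers pair the libraries, since each is 1 cell line. Members, gene lists, motifs and definitions were chosen with earlier results of these data known. Named genes were co-bound members, the leading member of each complex by clone 4 PLAG1-S fold, the 20 listed subunits and tissue-restricted isoforms. Named too were members with no peak or with USF2 in 1 clone, and the 10 co-bound pathway genes with the largest clone 4 USF2 fold. Members named beyond these were chosen after their values were seen. Python 3.11.15, pandas 2.3.3 and numpy 2.4.6 were used. Peak sequences outside the promoter windows were not analysed here. The peak lists hold no expression, so cell identity and overexpression were not checked. 1 item is not reported here by name.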

Additional observations from a re-analysis of the deposited data

How the results depend on the processing

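Of 53 alternative settings, 36 stayed within the bound used (1.5 times for a count, 1 SD over the clones for the median fold) and 17 went beyond it. The number of members with a reproducible PLAG1-S peak (52) stayed within it under all 13 settings tried, from 36 with a −log10 q of at least 10 to 71 in the union of the clones. The USF2 and co-bound counts (10 each) did not. They were 3 and 3 with a −log10 q of at least 10, 28 and 25 in the union of the clones, and 6 and 6 with a 50% reciprocal overlap between clones. With the clone as a replicate block, counting within each clone and averaging, the PLAG1-S, USF2 and co-bound counts were 62.5, 19.5 and 17.5. The co-bound count was 4 with 100 bp between midpoints. With 1 library left out, the PLAG1-S count ranged from 59 to 66, the USF2 count from 12 to 27 and the co-bound count from 10 to 23, the highest USF2 and co-bound values being those without the clone 5 USF2 library. The median fold of the strongest PLAG1-S peak (9.47) was 7.05 with clone 5 values, 7.71 over all clone 4 peaks and 7.21 under the replicate block, and from 6.71 to 7.71 with 1 library left out. The E-box count of 7 became 2 with the longer USF site, which is stricter by construction. Leaving out a library removes the demand for reproducibility, which raises counts by construction. The causes of the other shifts were not tested. The pair of clones gives no estimate of spread beyond their difference.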

Other observations

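The mitochondrial genome encodes the remaining subunits of complexes I, III, IV and V and lies outside the nuclear genes described above. The lists held 10 and 12 PLAG1-S peaks (clones 4 and 5) and 2 and 2 USF2 peaks on it, with folds from 1.41 to 1.87 over the 4 lists. The lowest fold of a reproducible PLAG1-S peak at the start of a nuclear member was 2.73 in clone 4. Mitochondrial DNA is present in many copies per cell, and the part of copy number in these peaks was not tested.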
